A study of Mus musculus with 21 samples.

Results

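The genes described here encode the proteins of the cytosolic ribosome, measured in spiral ganglion neurons of the mouse cochlea. They were taken by symbol: names that begin with Rpl or Rps followed by a number and at most a letter a, x, y, l or the ending l1, together with Rplp0, Rplp1, Rplp2 and Rpsa, leaving out pseudogenes, S6 kinases and mitochondrial ribosomal proteins. The rule found 83 of the 21878 lines of the count table. Of these, 80 had enough counts to be tested and 3 did not: Rpl10l had no count in any library, Rpl39l was at 0 in 19 libraries, and Rpl32l, annotated as a processed pseudogene, reached at most 13 counts.

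Spiral ganglion neurons carry the signal of the hair cells to the brainstem. At postnatal day 7, about 50 neurons were drawn into a micropipette for each library and their poly(A) RNA was copied by Smart-seq2, a full-length method for small inputs. The 21 libraries form 6 groups. The control libraries (4 from the apex and 4 from the base of the cochlea) are labelled WT and came from cochleae given an adeno-associated virus (AAV) that carried EGFP. The DN-HCN2 libraries (4 apex, 3 base) came with an AAV-carried, site-mutated HCN2, a pacemaker channel, labelled as dominant-negative mHCN2. The truncated SK3 libraries (3 apex, 3 base) came with an AAV-carried truncated form of SK3, a calcium-activated potassium channel. The age, cell type and collection by micropipette are shared by all groups. The labels name no mouse strain, no promoter and no time of injection, and each library is a biological replicate by its label with no animal named, so p-values measure the spread between these libraries.

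Ribosomal proteins assemble with ribosomal RNA into a large subunit, where peptide bonds form, and a small subunit, where the message is read. Their messages are among the most abundant of any cell, and many begin with a run of pyrimidines at the very 5′ end, through which the mTOR pathway controls their translation. Mammalian genomes also hold many processed pseudogenes of these genes, which are copies of the spliced message inserted elsewhere and are often nearly identical to their source.

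Library totals ran from 10411634 to 15138780 counts, and the members received 109600 to 225249 counts of each. The neuron markers summed to between 13070 and 27500 CPM (counts scaled to a common library total with TMM factors) in every library, beside 10890 to 46950 CPM for markers of Schwann and satellite glia, so glial RNA was present in every group. Macrophage markers, with at most 563 CPM in the other 19 libraries, summed to 1816 and 1704 CPM in DN-HCN2 base replicates 2 and 3. Supporting cell markers reached 10520 CPM in DN-HCN2 apex replicate 1, and fibroblast markers 8504 CPM in DN-HCN2 base replicate 1. Endogenous and virus-borne messages of the targeted genes could not be separated in the table. Hcn2 had group means of 28.7 to 62.2 CPM with overlapping libraries, and Kcnn3, which encodes SK3, stayed at or below 1.94 CPM in every library, so neither checked the labels.

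The family made up a small and steady part of the control libraries. It took 1.29, 1.33, 1.27 and 1.26% of the counts in control apex and 1.35, 1.40, 1.22 and 1.26% in control base. In DN-HCN2 apex the shares were 1.49, 1.51, 1.60 and 1.47%, and in DN-HCN2 base 1.5, 1.28 and 0.966%. In truncated SK3 they were 1.39, 1.19 and 1.52% in the apex and 1.20, 1.15 and 1.54% in the base. All 4 DN-HCN2 apex libraries thus lay above all 8 control libraries, while the other 3 construct groups had libraries above and within or below the control range. The SD was larger in 3 of the construct groups than in either control group: it was 0.0313 percentage points in control apex and 0.0829 in control base, against 0.0586, 0.269, 0.165 and 0.213 in DN-HCN2 apex, DN-HCN2 base, truncated SK3 apex and truncated SK3 base.

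**Figure D1:**
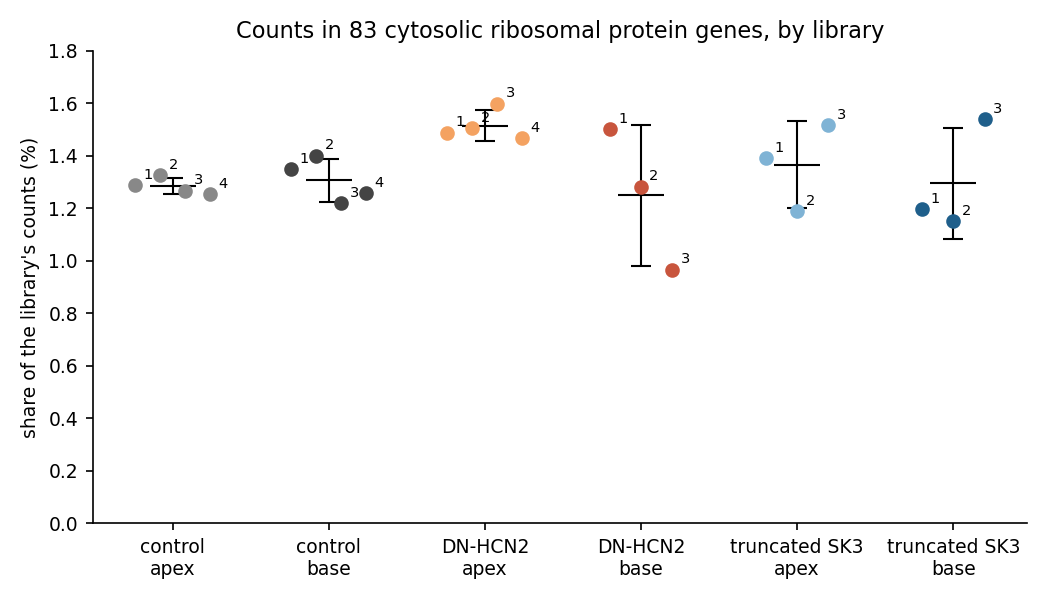
Share of each library's counts (%) that fell in the 83 members, by group. Points are libraries with their replicate number, the long bar is the group mean and the whiskers are 1 SD (n = 3 or 4). The DN-HCN2 apex libraries, at 1.47 to 1.60%, lie above every control library, and DN-HCN2 base replicate 3 is lowest at 0.966%.

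Per kilobase of transcript, Rpl41, Rpl13, Rps29, Rplp1 and Rpl19 stood highest, with means over the 21 libraries of 730.4, 599, 458, 431 and 427 CPM per kb. Rplp1 is part of the acidic stalk that recruits elongation factors, and the other 4 are structural proteins of the large subunit or, for Rps29, of the small subunit. Rpl21, Rps2, Rps15a, Rps20 and Rpl3l stood lowest among the tested members, at 21.6, 20.2, 19.3, 16.3 and 0.615 CPM per kb. Rps15a and Rps20 were divided by long representative transcripts of 5179 and 3706 bases, against a median of 882 bases for the family, which lowers their values on this scale. The median tested member had a mean of 146 CPM, higher than 90.3% of the tested genes.

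Members with a second, similar gene were read as pairs. Rpl3, a core protein near the catalytic centre, had 303 CPM per kb and its muscle-enriched paralog Rpl3l 0.615. Rpl7 had 234 and Rpl7l1 29.8 CPM per kb, and Rps27 had 355 and Rps27l, a known p53 target, 176. The order was the other way round for Rpl22, at 27.1 CPM per kb, and Rpl22l1, at 207. The lengths of the representative transcripts enter these values. Rpl22 and Rpl22l1 were divided by 2051 and 552 bases and had means of 55.6 and 114 CPM. Rpl7 and Rpl7l1 were divided by 1163 and 2606 bases and had means of 272 and 77.6 CPM. Rpl10 and Rpl39 had 242 and 124 CPM per kb, while Rpl10l was at 0 and Rpl39l at 0.0484. With edgeR on all libraries, none of these genes other than Rpl3, described further on, was called in any comparison. Some alternatives called Rps27l (DN-HCN2 over both regions, DESeq2 adjusted p = 0.0465), Rpl10 (DN-HCN2 in the apex, DESeq2 adjusted p = 0.00919) or Rpl22 (base against apex under DN-HCN2, edgeR adjusted p = 0.0248 without base replicate 1). Rpl3l was nearly absent except in DN-HCN2 base replicate 3, where it reached 8.72 CPM (95 counts), and it was at 0 in 10 libraries.

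Under DN-HCN2, 10 of the 80 tested members were called over both regions (edgeR, false discovery rate 0.05): 7 lower and 3 higher. The background was 6.05% of 14968 tested genes called in either direction, 3.61% lower and 2.45% higher. Under truncated SK3, 7 members were called, all lower, against a background of 0.735% of tested genes, 0.408% lower and 0.327% higher. Within the regions every call of a member was lower. DN-HCN2 called 4 members in the apex, where 0.2% of all tested genes were called (0.134% lower and 0.0668% higher). In the base it called 5 members, beside 2.14% of all genes (1.3% lower and 0.842% higher). Truncated SK3 called 5 members in the apex, beside 0.254% of all genes (0.154% lower and 0.1% higher). In the base it called 6 members, beside 0.147% of all genes (0.0735% lower and 0.0735% higher). The constructs were compared with the same 8 control libraries, so their values stand side by side and are not independent of each other. Rpl29, Rpl26, Rpl34, Rpl35a, Rps18 and Rpl21 were called lower under both constructs over both regions.

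**Figure D2:**
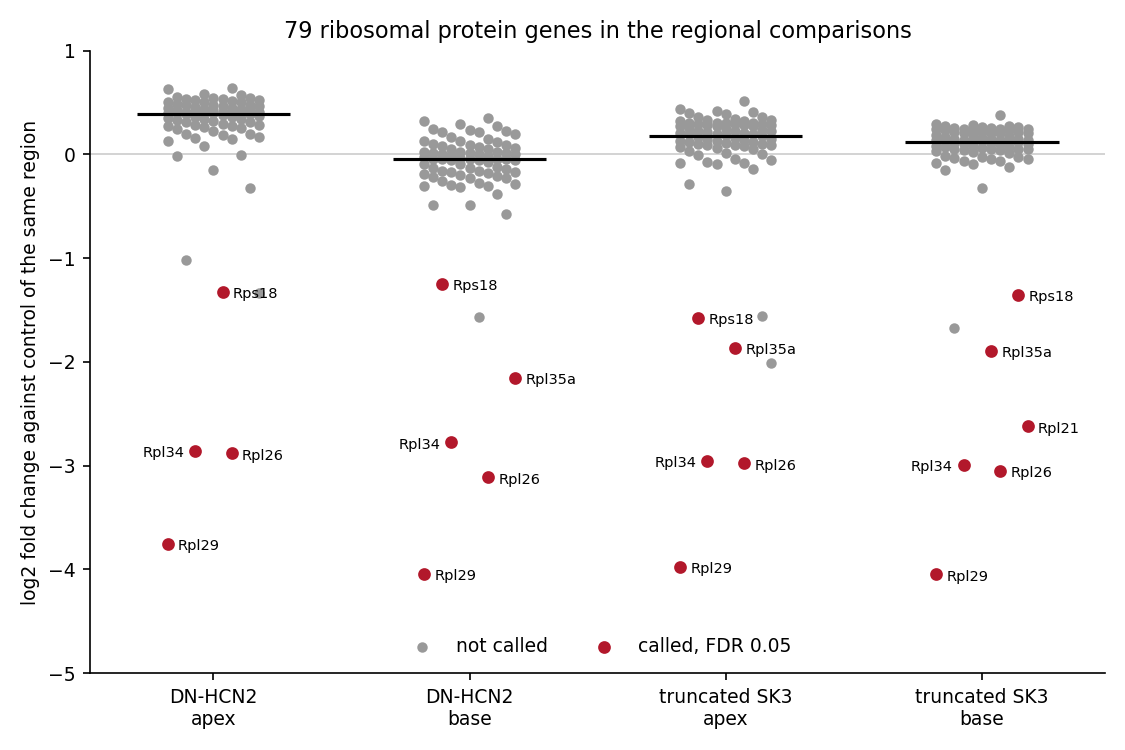
Log2 fold change of 79 tested members (Rpl3l, near 0 counts, is left out) for each construct against control of the same region. Red points passed a false discovery rate of 0.05, grey points did not, and the bar is the median over the members shown. Most members lie within a narrow band around the median and the called ones lie between -1.25 and -4.05.

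Rpl29, a small basic protein on the surface of the large subunit (chr9:106429454-106431568, + strand, GRCm38), showed the largest change among the members. Its level was 122, 107, 124 and 102 CPM in control apex and 118, 132, 104 and 120.2 in control base. In DN-HCN2 it was 8.16, 7.96, 8.46 and 9.04 CPM in the apex and 7.77, 6.77 and 7.06 in the base. In truncated SK3 it was 6.87, 6.54 and 8.16 CPM in the apex and 5.20, 7.67 and 8.61 in the base. Every one of the 13 construct libraries was at or below 9.04 CPM and every one of the 8 control libraries at or above 102. Across the regions together its log2 fold change was -3.90 (SE 0.141, adjusted p = 1.34e-13) for DN-HCN2 and -4.01 (SE 0.149, adjusted p = 2.17e-13) for truncated SK3, a 14.9-fold and a 16.1-fold lower level.

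Rpl26, a large subunit protein near the exit of the peptide tunnel that also binds the p53 message (chr11:68901583-68906989, + strand), separated the libraries in the same way. It was at 182, 179, 129.6 and 153 CPM in control apex and 186, 176, 133 and 159 in control base. The DN-HCN2 libraries held 22.1, 19.1, 24.3 and 21.8 CPM in the apex and 16, 20.3 and 20.4 in the base. The truncated SK3 libraries held 17.3, 17.2 and 26.8 CPM in the apex and 19, 18.3 and 21.9 in the base. The highest construct library, at 26.8 CPM, lay far below the lowest control, at 129.6. The log2 fold changes were -3.0 (SE 0.140, adjusted p = 1.14e-11) for DN-HCN2 and -3.01 (SE 0.147, adjusted p = 2.68e-11) for truncated SK3.

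Rpl34, also of the large subunit (chr3:130726831-130730398, - strand), was at 82.4, 95.4, 97.1 and 113 CPM in control apex and 117, 77.7, 60.6 and 94.1 in control base. It was at 12.9, 11, 15.6 and 14 CPM in DN-HCN2 apex and 17.8, 10.5 and 9.82 in DN-HCN2 base. In truncated SK3 it was at 11.4, 9.55 and 16.7 CPM in the apex and 7.55, 10.5 and 14.8 in the base. The groups did not overlap, and the control libraries differed more among themselves than for Rpl29. The log2 fold changes were -2.82 (SE 0.205, adjusted p = 2.33e-08) and -2.97 (SE 0.217, adjusted p = 2.07e-08) for DN-HCN2 and truncated SK3.

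Rpl35a (chr16:33056453-33060189, + strand), a large subunit protein whose mutations cause Diamond-Blackfan anaemia, ranged from 62.7 to 83.3 CPM in the 8 control libraries. It was at 17.1, 20.3, 42.6 and 32.3 CPM in DN-HCN2 apex and 21.5, 20.8 and 10.5 in DN-HCN2 base. In truncated SK3 the values were 17.6, 16.9 and 24 CPM in the apex and 19.7, 14.2 and 29.3 in the base. DN-HCN2 apex replicates 3 and 4 stood above the other construct libraries and below all controls. The log2 fold changes over both regions were -1.74 (SE 0.214, adjusted p = 6.62e-05) and -1.88 (SE 0.226, adjusted p = 5.47e-05).

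Rps18, a protein of the head of the small subunit (chr17:33951999-33956001, - strand), was the only small subunit gene among these 6. It was at 127, 127, 128 and 140.5 CPM in control apex and 103, 119.6, 66.9 and 131 in control base. The construct libraries ranged from 30.4 to 57 CPM, with medians of 53.9 in DN-HCN2 apex, 49.2 in DN-HCN2 base, 44.1 in truncated SK3 apex and 36.2 in truncated SK3 base. The nearest libraries of either side were control base replicate 3 at 66.9 and truncated SK3 base replicate 3 at 57 CPM. The log2 fold changes were -1.29 (SE 0.165, adjusted p = 1.09e-04) and -1.46 (SE 0.174, adjusted p = 5.25e-05).

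Rpl21 (chr5:146832890-146837032, + strand), of the large subunit, varied widely between libraries of the same construct. It ranged from 46.1 to 97.3 CPM in control libraries. DN-HCN2 apex held 50.5, 45.9, 7.96 and 14.3 CPM, with replicates 1 and 2 at the lower edge of the controls and replicates 3 and 4 far below. DN-HCN2 base held 34.5, 24.6 and 21.6 CPM, and the 6 truncated SK3 libraries ranged from 11.5 to 17.7 CPM. Its log2 fold change was -1.29 (SE 0.298, adjusted p = 0.0146) for DN-HCN2 over both regions and -2.32 (SE 0.328, adjusted p = 4.43e-04) for truncated SK3. The difference between the constructs, 1.03 on the log2 scale over both regions (SE 0.320), was not called (adjusted p = 0.129). Without DN-HCN2 base replicates 2 and 3, the libraries with macrophage markers, the log2 fold change for DN-HCN2 was -1.10 and the call was lost at an adjusted p of 0.164.

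**Figure D3:**
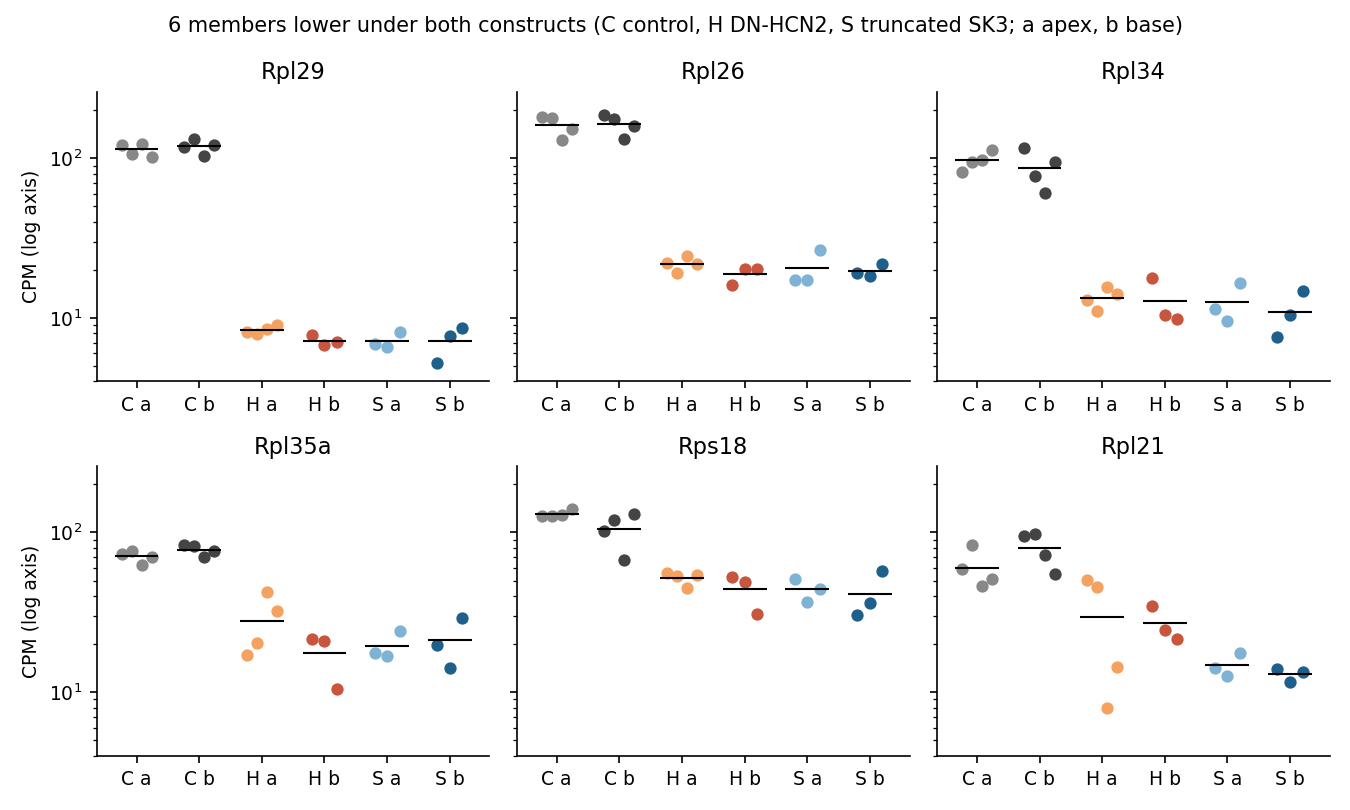
CPM (log axis) of the 6 members called lower under both constructs, in each library (points) with the group mean (bar), for control (C), DN-HCN2 (H) and truncated SK3 (S) in apex (a) and base (b). The 8 control libraries lie above all 13 construct libraries for Rpl29, Rpl26, Rpl34, Rpl35a and Rps18, and Rpl21 overlaps through DN-HCN2 apex replicates 1 and 2.

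The regional values of the 6 genes stand side by side here. In DN-HCN2 the log2 fold change of Rpl29 was -3.75 (SE 0.183) in the apex and -4.04 (SE 0.210) in the base, and in truncated SK3 it was -3.98 (SE 0.210) and -4.05 (SE 0.211). For Rpl26 the 4 values were -2.88, -3.11, -2.98 and -3.05 in the same order, and for Rpl34 -2.86, -2.78, -2.95 and -2.99. For Rpl35a in DN-HCN2 they were -1.34 in the apex, where it was not called (adjusted p = 0.0532), and -2.15 in the base. Neither interaction of construct and region called any member (edgeR; background 0.00668% for DN-HCN2 and 0% for truncated SK3), with 18 and 0 members at an unadjusted p under 0.05 (6.85 and 3.64% of all genes), and DESeq2 and limma-voom called 0 in each.

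The counts of nearly identical copies bear on these genes. Of the 80 tested members, 69 had at least 20% of their transcript's 50-base stretches in some other annotated gene (86.2%, against 10.3% of all tested genes), and all 6 genes lower under both constructs were among them. How the counting treated reads that fit several places is not given in the sources used here, so a member's count can include or lose reads of its copies. By coding sequence, 55 members had a copy at least 99% identical over at least 90% of the coding bases, 6 of them the genes above, and for 6 of the 55 that copy was itself a line of the table. Most members that moved with the family also had a nearly identical copy. Whether reads were assigned to such copies was not tested.

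In the table, 14 lines of other genes shared at least 20% of the 50-base stretches of 11 members. Among the 12 that were tested, the processed pseudogenes Gm8210 and Rpl34-ps1 had higher counts in every construct library than in any control library. They were singled out after their values had been seen. Gm8210 (chr1:43189156-43189638, + strand) matched the 480 coding bases of Rpl29 with 3 mismatches, and Rpl34-ps1 (chr6:71124610-71124963, + strand) matched the 351 coding bases of Rpl34 with 2. The following stretches of 60 coding bases, from the GENCODE M21 transcripts, show how little separates each gene from its copy; the capital marks the base that differs.
Rpl29: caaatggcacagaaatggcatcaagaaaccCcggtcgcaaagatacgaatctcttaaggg
Gm8210: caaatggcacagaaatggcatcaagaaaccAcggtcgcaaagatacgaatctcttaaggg
Rpl34: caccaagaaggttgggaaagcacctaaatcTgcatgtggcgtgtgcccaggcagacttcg
Rpl34-ps1: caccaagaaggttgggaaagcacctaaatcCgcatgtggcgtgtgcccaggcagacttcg

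Gm8210 held 0 to 4 counts in each of the 8 control libraries, 8 in all, and 160 to 327 counts in each of the 13 construct libraries. Its level was 14.1 to 21.4 CPM under the constructs. It passed the count filter only through the construct libraries, so no test of it is given. Rpl34-ps1 was at 34, 11.4, 7.25 and 9.17 CPM in control apex and 10.2, 42.9, 33.0 and 10.2 in control base, against 75 to 139 CPM in the construct libraries. Its log2 fold change was 2.48 (SE 0.342, adjusted p = 3.23e-04) for DN-HCN2 and 2.46 (adjusted p = 5.60e-04) for truncated SK3.

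The sums of gene and copy differed between the pairs. Rpl34 and Rpl34-ps1 together made 93.6 to 127 CPM in the control libraries and 84.9 to 155 CPM in the construct libraries, with medians of 112 and 119, so the sums overlapped. The pseudogene line held 6.95 to 35.6% of the pair's counts in control libraries and 87.3 to 93% in construct libraries. Among the controls, apex replicate 1 and base replicates 2 and 3 held 29.2, 35.6 and 35.3% of the pair's counts in the pseudogene line, against at most 10.7% in the other 5, and these 3 were also the lowest of the controls for Rpl34. Rpl29 and Gm8210 together made 102 to 132 CPM in control and 21.7 to 29.5 CPM in construct libraries, so the sum of this pair stayed far below control. In the annotation 13 genes, 12 of them pseudogenes, each shared at least 20% of Rpl29, and only Gm8210 among them had a line in the count table. Gm6344, which like Gm8210 matched 477 of the 480 coding bases of Rpl29, had none. Reads on copies without a line are not in this sum. The closest copies of Rpl26 (Gm15772), Rpl35a (Rpl35a-ps6), Rps18 (Gm11361) and Rpl21 (Gm13370) had no line in the count table, so no such sum could be made. Whether assignment of reads between copies plays a part in these differences was not tested.

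**Figure D4:**
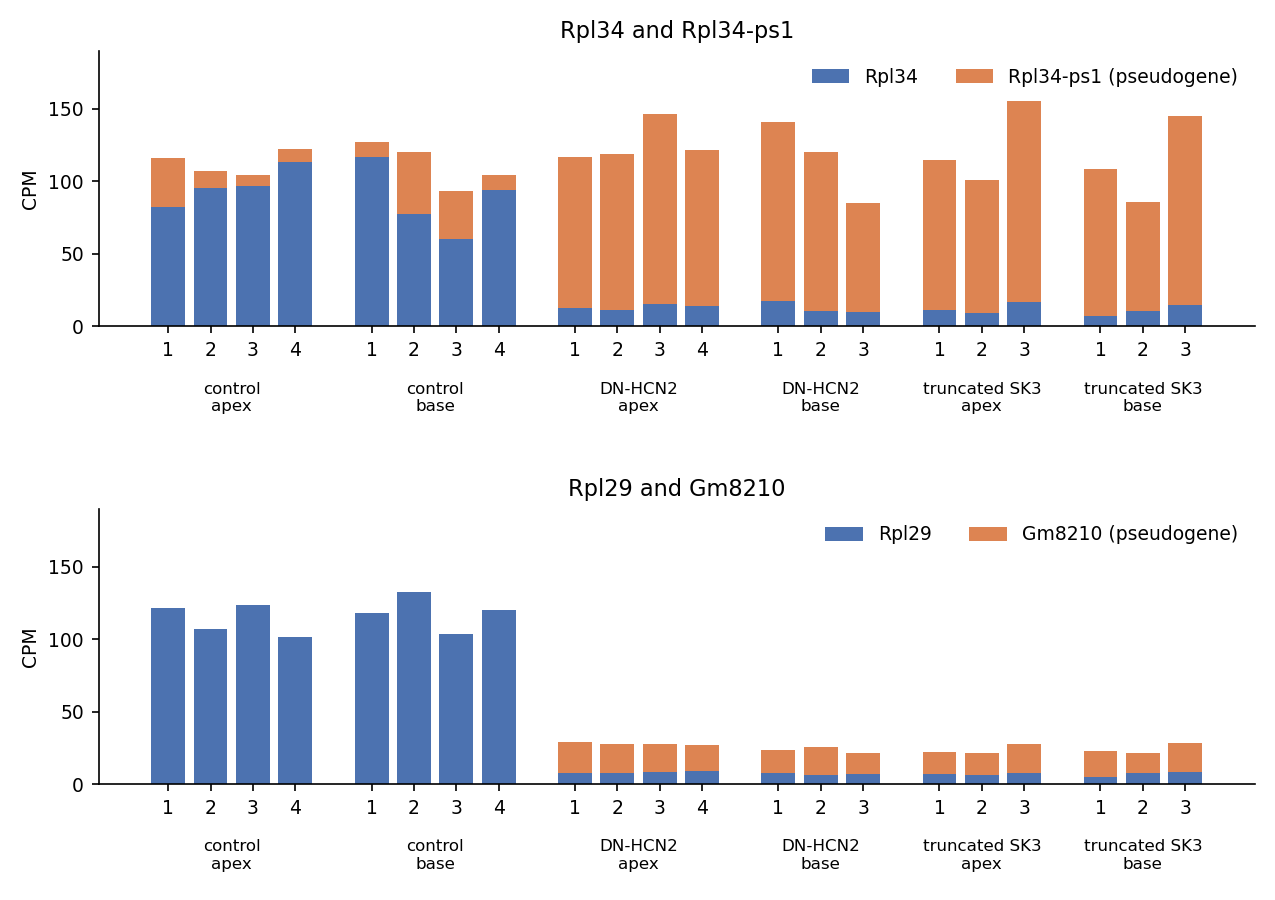
Stacked CPM of Rpl34 with Rpl34-ps1 (top) and of Rpl29 with Gm8210 (bottom) in each library, numbered by replicate within its group. Rpl34-ps1 holds 87.3 to 93% of its pair's counts in the construct libraries with a sum like that of the controls, and the Rpl29 pair falls from at least 102 to at most 29.5 CPM.

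Rps2, a small subunit protein at the entry of the message channel (chr17:24718116-24721929, + strand), was lower under truncated SK3 and not under DN-HCN2. It was at 45.5, 48.9, 10.7 and 10.2 CPM in control apex and 26.5, 33.5, 21.3 and 17.6 in control base, so control apex was split into 2 high and 2 low libraries. It was at 30.2, 28.4, 25.9 and 30.4 CPM in DN-HCN2 apex and 23.8, 36.4 and 21 in DN-HCN2 base. In truncated SK3 it was at 8.10, 7.83 and 13.4 CPM in the apex and 7.14, 7.43 and 8.61 in the base. The truncated SK3 libraries lay below every DN-HCN2 library and overlapped control apex replicates 3 and 4. In the annotation 21 genes, all 21 of them pseudogenes, each shared at least 20% of Rps2. The closest, Rps2-ps10, had no line in the count table. Whether reads on such copies play a part in these values was not tested. For truncated SK3 the log2 fold change across the regions was -1.62 (SE 0.328, adjusted p = 0.0164), and for DN-HCN2 it was 0.06 (SE 0.298, adjusted p = 0.935). The direct comparison of the constructs called Rps2 alone among the members, 1.68 higher (SE 0.336, adjusted p = 0.0208) on the log2 scale in DN-HCN2, with a background of 0.655% of tested genes (0.22% higher and 0.434% lower). Both calls were lost with limma-voom, the first at an adjusted p of 0.213, and the second also without the 2 macrophage-rich libraries, at adjusted p-values up to 0.145. Over the alternatives other than leaving out single libraries, the log2 differences ran from -1.70 to -1.49 for the first and from 1.54 to 1.86 for the second.

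The remaining 4 called members moved by less, and only DN-HCN2 over both regions called them. Rpl35 was at 104 to 148 CPM in control, 159.8 to 176 in DN-HCN2 apex and 137 to 193 in DN-HCN2 base, with a log2 fold change of 0.47 (SE 0.110, adjusted p = 0.0167). Rps14 was at 245 to 293 CPM in control, 345 to 383 in DN-HCN2 apex and 253 to 381 in DN-HCN2 base, with a log2 fold change of 0.38 (SE 0.0981, adjusted p = 0.0275). Rpl31 had 0.37 (SE 0.106, adjusted p = 0.0449). Rpl3 went the other way: 390.1 to 549.8 CPM in control, 321 to 486 in DN-HCN2 apex and 295 to 337 in DN-HCN2 base, with a log2 fold change of -0.36 (SE 0.104, adjusted p = 0.0431). These calls are close to the threshold. When 1 library at a time was left out, Rpl35 was called in all 15 fits, Rps14 in 6, and Rpl31 and Rpl3 in 3 each, at adjusted p-values up to 0.0645, 0.0973 and 0.0950 for the last 3 genes. The members' median in this comparison was 0.16. The calls of Rpl35 and Rps14 were lost with the correction for GC content and length and without the 2 libraries rich in supporting cell or fibroblast markers, and that of Rps14 also with the replicate block, at adjusted p-values up to 0.202 and 0.307. Of the 11 other alternatives, 6 called Rpl31 and 4 called Rpl3, with the replicate block among those that did not.

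The 69 members called in no comparison stayed close together, in part because the same tests had removed the called ones. In DN-HCN2 apex, 66 of them had a positive log2 fold change and 3 a negative one, with a median of 0.40 and quartiles of 0.29 and 0.47. Over all 80 tested members, 69 were positive and 11 negative. Members moved together within a library, so these signs are not independent of each other. The median over the 80 was 0.39, against 0.01 over all 14968 tested genes. The 4 called members in this comparison were the lower ones above, and 52 members had an unadjusted p under 0.05, 11.9% of all genes doing so. Rps27l, Rplp2 and Rpl35 stood farthest above the median, at 0.64 (adjusted p = 0.255), 0.63 (adjusted p = 0.265) and 0.58 (adjusted p = 0.134). DESeq2 called 11 members and limma-voom 10 in this comparison, against the 4 of edgeR. Those alternatives added members above 0 such as Rpl10, at 0.52 (adjusted p = 0.00919, DESeq2), and Rpl32, also at 0.52 (adjusted p = 0.0228, DESeq2), the latter singled out after its values were seen.

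In DN-HCN2 base the members' values were centred near 0. Among the 69 members, 29 were positive and 40 negative, with a median of -0.04. Over all 80 tested members, 33 were positive and 47 negative. The libraries of this group disagreed: in replicate 1, 44 of the 69 members were above their own mean over all libraries, in replicate 2 there were 30, and in replicate 3 there were 3. Without replicate 3 the median of the 80 members changed sign to 0.10, and without replicates 2 and 3, the macrophage-rich libraries, it was 0.16. These 2 libraries were also the highest of their group for endothelium and blood markers, at 2505 and 2317 CPM, against 822 in replicate 1 and at most 1103 in any control library. Replicates 2 and 3 had similar macrophage marker sums (1816 and 1704 CPM) and differed in family share (1.28 and 0.966%). The part of other cells' RNA in this difference was not tested. In bulk libraries like these, fewer cells of a type and less RNA per cell cannot be told apart.

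Under truncated SK3 most members had small positive values. Over both regions 58 of the 69 members were positive and 11 negative, with a median of 0.19, and 61 of the 80 tested members were positive. Over the 80 the median was 0.17 in the apex and 0.12 in the base, and 0.14 for the regions together, beside 0.02, 0.01 and 0.01 for all genes. No member with a positive value passed the test. Rps27, at 0.39 (adjusted p = 0.254), Rpl10a, at 0.35 (adjusted p = 0.298), and Rps20, at 0.33 (adjusted p = 0.55), stood farthest above the median. The libraries again spread widely: replicate 3 of both regions had 63 and 68 of the 69 members above their own mean, and replicate 2 of both regions had 6 and 7. Endothelium and blood markers summed to 4156 and 2973 CPM in the replicates 3 and to 343 and 563 in the replicates 2, beside 112 and 3770 CPM in the replicates 1, and their part in this spread was not tested. Without base replicate 3 the median in the base changed sign to -0.04.

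**Figure D5:**
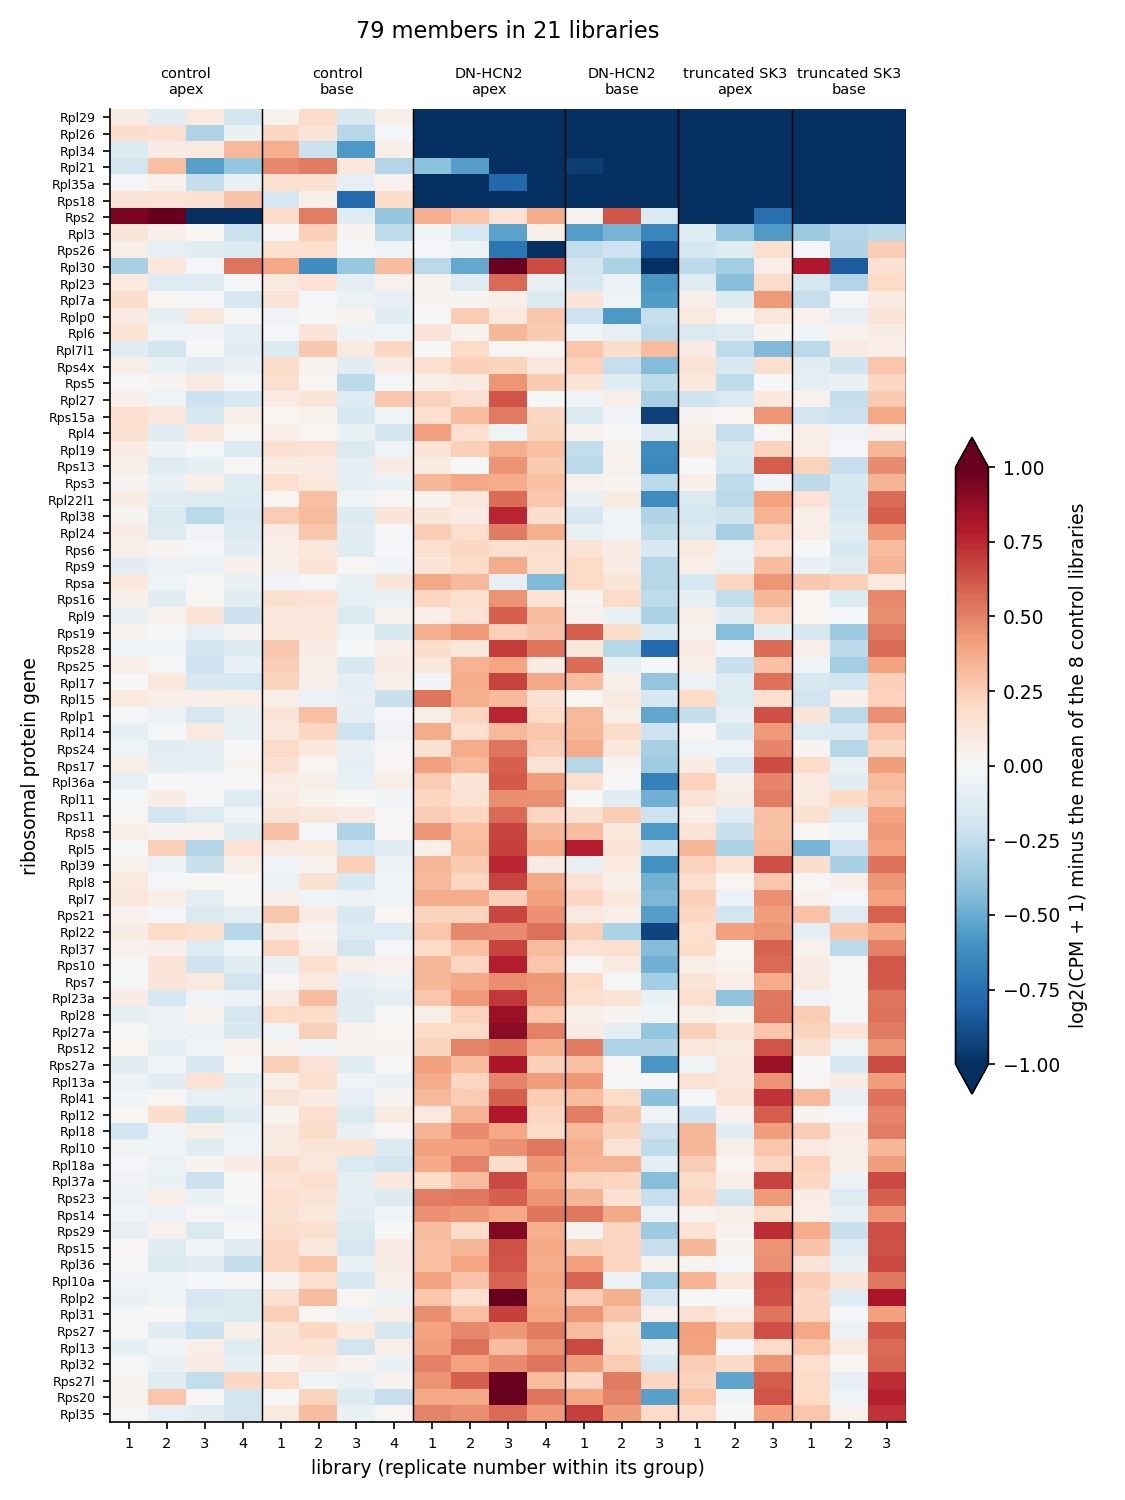
Each row is 1 of 79 tested members and each column 1 of 21 libraries; colour is log2(CPM + 1) minus the mean of the 8 control libraries, cut at 1 in either direction. Rows are ordered by their mean over the construct libraries. Rpl29, Rpl26, Rpl34, Rpl21, Rpl35a and Rps18 form the dark block at the top, and below them most members rise or fall together within a library, highest in DN-HCN2 apex replicate 3 and truncated SK3 replicates 3 and lowest in DN-HCN2 base replicate 3.

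The medians of large and small subunit genes lay close together. In DN-HCN2 apex the median log2 fold change was 0.38 over 49 large subunit genes and 0.40 over 31 small subunit genes, and in DN-HCN2 base it was -0.05 and -0.03. Under truncated SK3 over both regions it was 0.14 and 0.13. The P-stalk genes Rplp0, Rplp1 and Rplp2 had log2 fold changes of 0.13, 0.41 and 0.63 in DN-HCN2 apex and -0.30, -0.09 and 0.05 in DN-HCN2 base, none of them called. Rpl5 and Rpl11, which form a particle with the small 5S RNA and bind the p53 regulator MDM2, had 0.34 and 0.35 in the apex. Rps6, the target of the S6 kinases, had 0.19, and Rps19, another Diamond-Blackfan anaemia gene, 0.34. Those 4 were not called either.

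No member passed the test between the regions in control neurons. Base against apex called 0 of 80 members in control (edgeR; background 0%), none had an unadjusted p under 0.05, and DESeq2 and limma-voom called 0. The median log2 difference, base minus apex, was 0.07, with Rpl21 highest at 0.41 and Rps18 lowest at -0.31 among members of at least 10 CPM. Under truncated SK3 the median was 0.01, and again 0 members were called, 0 had an unadjusted p under 0.05 and both other tools called 0 (background 0.0134%).

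Under DN-HCN2 nearly every member had a lower mean in the base than in the apex, and none passed the test. Of the 80 tested members, 78 had a negative difference, with a median of -0.35 against 0.00 over all genes. Rpl30 was lowest at -0.89 (adjusted p = 0.386), followed by Rpl22 at -0.72 (adjusted p = 0.178) and Rps28 at -0.68 (adjusted p = 0.227). Farthest above the median, among members of at least 10 CPM, were Rpl7l1 at 0.20 (adjusted p = 0.637), Rps26 at -0.02 (adjusted p = 0.989) and Rpl35 at -0.04 (adjusted p = 0.955). edgeR called 0 members (background 0.214%, of which 0.114% higher and 0.1% lower), 33 members had an unadjusted p under 0.05 (12.1% of all genes did), limma-voom called 0 and DESeq2 called 4: Rplp0, Rpl11, Rpl19 and Rpl27a, the last singled out after its values were seen. The construct by region interaction had a median of -0.43, with 76 of 80 members negative, and it too called none. Both medians shrank without the macrophage-rich base replicates 2 and 3, to -0.15 and -0.18, and were -0.48 and -0.56 without apex replicate 1 and base replicate 1, the libraries rich in supporting cell and fibroblast markers, a setting in which 5 members were called.

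Some members that were never called varied within a group. Rps26 was at 103 and 101 CPM in DN-HCN2 apex replicates 1 and 2 and at 62.8 and 51.2 in replicates 3 and 4, with 57.7 in base replicate 3, against 95.2 to 118 in control. Rpsa, which also serves as the laminin receptor, was at 375 and 359 CPM in DN-HCN2 apex replicates 1 and 2 and at 271 and 211 in replicates 3 and 4. Rpl30 ran the other way, at 33.8 and 28.3 CPM and then 87.2 and 64.7. It also varied widely in other groups: 32.4 to 59.7 CPM in control apex, 26.3 to 53.7 in control base and 22.5 to 71.9 in truncated SK3 base. The supporting cell markers of DN-HCN2 apex, at 10520, 1707, 1457 and 922 CPM in replicates 1 to 4, were highest in replicate 1. Their part in the variation within DN-HCN2 apex was not tested.

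The 18 other genes with pyrimidine-start messages, such as Eef1a1 and Tpt1, had a median log2 fold change of 0.16 in DN-HCN2 apex, -0.07 in DN-HCN2 base and 0.17 under truncated SK3 over both regions. edgeR called 0 of them under either construct over both regions, with 2 at an unadjusted p under 0.05 for each, beside 22% of all genes for DN-HCN2 and 10.3% for truncated SK3. Of 77 mitochondrial ribosomal proteins 3 were called under DN-HCN2 over both regions, a smaller share than the 6.05% of all tested genes. Mrps10 (0.88, adjusted p = 0.00935) and Mrps12 (0.53, adjusted p = 0.024) were higher and Mrpl55 (-0.52, adjusted p = 0.0369) was lower. Mrpl55 was also called in the base alone, the region of the macrophage-rich DN-HCN2 libraries, and Mrps10 between the constructs. Calls in these lists were not checked under the alternatives. In DN-HCN2 apex 67 of the 77 were positive and 10 negative, with a median log2 fold change of 0.23. There 26 of them had an unadjusted p under 0.05, beside 11.9% of all genes. In DN-HCN2 base the median was -0.03. The interaction of DN-HCN2 and region had a median of -0.28, with 68 of the 77 negative. Under truncated SK3 over both regions the median was 0.05. Of 52 ribosome biogenesis factors, 0 were called under either construct over both regions, with 7 and 5 at an unadjusted p under 0.05, to be read beside the same 22 and 10.3%.

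Of 34 initiation and elongation factors 4 were called under DN-HCN2 over both regions, and of 18 regulators of the mTOR pathway and of pyrimidine-start messages 4, beside 6.05% of all tested genes. The values given are for that comparison. Larp4 and Rps6ka1 were also called in the base alone, the region of the macrophage-rich DN-HCN2 libraries. Calls in these lists, too, were not checked under the alternatives. Among the factors, Eif5 (0.35, adjusted p = 0.0295) and the eIF3 subunit Eif3b (0.78, adjusted p = 0.0358) were higher, and Eif4g2, a scaffold for alternative initiation (-0.54, adjusted p = 0.00945), and Eef1a2, the neuronal and muscle form of eEF1A (-1.0, adjusted p = 0.0424), were lower. Among the regulators, Larp4, a poly(A) binding factor (-0.90, adjusted p = 0.00253), the inhibitor Tsc2 (-0.64, adjusted p = 0.0118) and the kinase Mtor (-0.58, adjusted p = 0.0369) were lower. Rps6ka1, an S6 kinase of the RSK type, was higher (1.02, adjusted p = 0.008). Mtor was at 45.6 to 70.2 CPM in control libraries, 27.4 to 63.6 in DN-HCN2 apex and 28.9 to 38.8 in DN-HCN2 base. Under truncated SK3 over both regions 0 members of either list were called, with 3 and 2 at an unadjusted p under 0.05.

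Short pyrimidine motifs were searched near the annotated starts of the family. RefSeq promoter windows on GRCm38.p6 were matched for 63 members, and the 40 bases around the start were searched on the sense strand for the letters CTTTC, for CTTTT and for CTCTT. At least 1 of these was found in 26 members (41.3%), against 13.4% of 27025 promoters. A match anywhere in the window counted and other pyrimidine runs did not. These shares therefore do not measure how many messages begin with a run of pyrimidines. The windows below show 20 bases before and 20 from the annotated start of the lower gene Rps18 (chr17:33955646-33955685, - strand), of Rps6, which stayed with the family (chr4:86857348-86857387, - strand), and of the lower gene Rpl26 (chr11:68901546-68901585, + strand), with the motif in capitals. Rpl26 has none in this window, which says only that these letters are not there.
Rps18: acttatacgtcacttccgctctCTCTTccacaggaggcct
Rps6: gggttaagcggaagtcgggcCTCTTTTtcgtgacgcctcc
Rpl26: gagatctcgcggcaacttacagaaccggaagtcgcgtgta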

How the data were processed

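Each library is a column of whole-number read counts per gene in the table the authors deposited. The tools named for making it are Trimmomatic, HISAT2 and DESeq2, on mouse build GRCm38 (mm10), per the submitters' processing notes; which program counted the reads, and on which annotation, is not given in the sources used here. Of its 21878 lines, 27 carry a date in place of a symbol (no member among them).

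After filterByExpr left 14968 genes, all 21 libraries entered a single model of 6 group means, scaled by TMM and tested by robust quasi-likelihood (edgeR 4.0.16, R 4.3.3). The 12 contrasts were each construct against control per region and over both regions, base against apex in each condition, both interactions, and DN-HCN2 against truncated SK3. P-values were adjusted by Benjamini-Hochberg over all tested genes, with calls at 0.05. Levels are CPM, counts over the TMM-scaled library total. The median coefficient of biological variation was 0.192 for members and 0.377 for all genes.

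The members and lists were chosen with earlier results of these data known. Named members are those called in any comparison, the 3 farthest above and below the members' median in each construct and base-apex comparison, the paralog pairs, 8 members with known roles and the 5 highest and lowest per kilobase; in other lists, up to 4 called genes per comparison by smallest p. Positions and transcripts come from GENCODE M21 (GRCm38) by symbol; sequence sharing counts 50-base stretches of 1 representative transcript per gene, on both strands. Alternatives were RLE size factors, TMM without the members, limma-voom (limma 3.58.1), DESeq2 1.42.0, dropping the low-count filter or raising it to 10 CPM in 3 libraries, only the groups compared, a replicate block, a GC and length correction, removal of genes sharing sequence, and leaving out libraries singly or in the pairs rich in other cells' markers. The edgeR functions were tested on simulated data. A list of other subunit genes outside the symbol rule is not reported here.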

Additional observations from a re-analysis of the deposited data

Results flagged for a closer look

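In 11 of 141 checks of a value in a group of 4 libraries, the highest or lowest library stood apart by more than Dixon's criterion (a gap over 0.829 of the range); chance alone gives about 1 in 20. For Rps18, control apex replicate 4 was highest at 140.5 CPM, against 127 to 128 in the other 3. Rpl34-ps1 stood apart in control apex replicate 1, at 34 CPM against 7.25 to 11.4, and in DN-HCN2 apex replicate 3, at 131 CPM against 104 to 108. Gm8210 was at 0.0704 CPM in control base replicate 4, which is 1 count, and at 0 in the other 3.

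Among the members that stayed with the family, Rpl38 reached 176 CPM in DN-HCN2 apex replicate 3, against 109.6 to 117 in the others, and Rpl7l1 87.0 CPM in DN-HCN2 apex replicate 2, against 76.6 to 77.2. Rpl22l1 was high in control apex replicate 1 (115 CPM, others 99 to 101) and in control base replicate 2 (135 CPM, others 106 to 110.4). Rpl7 was at 258 CPM in control base replicate 1, against 241 to 242, and Rpl10 was low in control base replicate 4, at 167 CPM against 196 to 202. Rpl3l was at 1.20 CPM in DN-HCN2 apex replicate 4 and at 0 in the other 3.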

How the results depend on the processing

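Removing genes that share sequence left 0 members called in the 6 construct comparisons and in DN-HCN2 against truncated SK3, since it takes the called members out of the test. DESeq2 called more members than edgeR in 4 comparisons: 11 against 4 for DN-HCN2 in the apex, 17 against 10 over both regions, 4 against 0 for base against apex under DN-HCN2, and 2 against 1 for DN-HCN2 against truncated SK3. limma-voom called 10 for DN-HCN2 in the apex and 0 for DN-HCN2 against truncated SK3. Without the macrophage-rich pair, 3 members were called for DN-HCN2 in the base, against 5, and 0 for DN-HCN2 against truncated SK3. Without the pair rich in supporting cell and fibroblast markers, 6 were called for DN-HCN2 over both regions and 5 for base against apex under DN-HCN2.

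Leaving out 1 library gave 3 to 5 calls for truncated SK3 in the apex (5 in the full data), 3 to 6 in the base (6), 0 to 1 for base against apex under DN-HCN2 (0) and 0 to 2 for DN-HCN2 against truncated SK3 (1). In the apex, leaving out truncated SK3 replicate 2 ended the calls of Rpl35a (log2 fold change -1.77, adjusted p = 0.0862) and Rps18 (-1.46, 0.0504). In the base, the call of Rpl21 ended without any 1 of the 3 truncated SK3 libraries (adjusted p up to 0.135; log2 fold change -2.78 to -2.53 over all fits without 1 library). That of Rpl35a ended without replicate 1 or 2 (up to 0.101; -2.21 to -1.68), and that of Rps18 without either of these or control replicate 2 or 4 (up to 0.189; -1.66 to -1.18). Rps18 was also lost for DN-HCN2 in the base without replicate 3 (0.0588). There, leaving out the macrophage-rich pair ended the calls of Rpl35a (0.0762) and Rps18, and fitting only the groups compared also ended that of Rps18 (up to 0.224). Rps2 under truncated SK3 was lost without apex replicate 2, base replicate 1 or base replicate 3 (up to 0.0591). Its difference between the constructs was lost without DN-HCN2 base replicate 2, truncated SK3 apex replicate 2 or truncated SK3 base replicates 1 or 2 (up to 0.0597). Over both regions, Rpl29, Rpl26, Rpl34, Rpl35a and Rps18 were called under both constructs in every fit that tested them. No called member reversed its direction in any fit.

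Deviations of same-numbered libraries correlated at -0.148 to 0.246, with a median of -0.0169 over 48 pairs. Pairs of other numbers ran from -0.283 to 0.184, with a median of 0.000989 over 135 pairs. The 48 pairs mix different conditions with apex and base of the same condition. They cannot decide whether same-numbered apex and base libraries were paired. The replicate block gave 7 calls for DN-HCN2 over both regions, against 10, and 7 for truncated SK3. Across all alternatives, 224 counts of called members stayed within 1.5 times the value reported and 28 did not, and 249 medians moved by less than the spread between libraries and 3 by more.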
